A study of Homo sapiens with 26 samples.

Results

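The glucocorticoid receptor (GR) binding regions around TCIM on human chromosome 8 are described, 16 of the 10740 regions measured. They were chosen by position: the midpoint of each had its nearest protein-coding gene start, in GENCODE 44 on hg38, at TCIM and within 100 kb. TCIM was singled out because it had the most such regions in these data, so its count and its values are a description and are not tested. GR was mapped by chromatin immunoprecipitation with sequencing (ChIP-seq) in A549, an established human lung carcinoma line with features of alveolar epithelium, to ask how the transcription factor NF-κB affects where GR binds. Cells carried an adenovirus with IκBαΔN, a form of the NF-κB inhibitor IκBα (Ad-IκBαΔN), or with green fluorescent protein as control (Ad-GFP). Within each virus, cells were given interleukin-1β at 1 ng/ml with the glucocorticoid budesonide at 300 nM (IL1B+Bud), budesonide at 300 nM alone (Bud), or were left untreated, and were fixed after 1 h. The 6 groups were thus Ad-IκBαΔN with IL1B+Bud, Bud and no treatment, and Ad-GFP with IL1B+Bud, Bud and no treatment, each from 2 libraries. All cells in the comparison were infected and serum-starved overnight, and no group without virus and no GR group with IL1B alone was analysed here.

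TCIM encodes a small protein that binds Chibby, an inhibitor of β-catenin, and is described as a positive regulator of Wnt/β-catenin signalling and as a gene that responds to inflammatory signals. GR is a ligand-activated transcription factor that enters the nucleus on glucocorticoid binding and occupies DNA at glucocorticoid response elements or beside other factors. Interleukin-1β activates NF-κB by causing the degradation of IκBα, and IκBαΔN is made to escape that degradation. TCIM RNA was not measured in the data used here, so nothing is said of the gene's expression.

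Each value was the authors' log2(signal + 1) for a region of 400 bp, where signal is a mean coverage per base, and there was 1 value per region and group. No difference between groups therefore had a replicate check, and no SD, n or p-value is given. Regions were called higher or lower at a log2 difference of 1 or more in size, a 2-fold difference in signal + 1, a scale that makes differences at low signal look smaller. Folds and ratios of single regions are on that scale. The scale between groups was not stated, and the signal in Ad-IκBαΔN cells with IL1B+Bud, times the region width, fell on multiples of a step of 1.5, that in Ad-GFP cells with IL1B+Bud on a step of 3, and that of 3 other groups on a step of 1. No step was found for untreated Ad-IκBαΔN cells, and a step of 1 was assumed there where steps were divided out. A difference in scale shifts all regions of a group together, so counts of the locus's regions are read against the share of all regions in the same comparison.

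TCIM lies on the forward strand at chromosome 8, 40153482 to 40155310. Its regions spanned 160 kb from the first midpoint to the last, with 8 upstream and 8 downstream of the gene start. None of the 16 lay within 1 kb of the start, and 5 lay in the first 25 kb downstream. Gaps between neighbouring midpoints ran between 1.31 kb and 39.4 kb, with a median of 4.90 kb. Of the 16, 11 were intergenic, outside any annotated gene, 4 lay in an intron of a long non-coding RNA upstream of TCIM (2 in ENSG00000253381 and 2 in LINC02866), and 1 lay in an exon of the long non-coding RNA ENSG00000254143. Regions are named below by the distance of their midpoint from the start, negative upstream and positive downstream.

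The number of regions set TCIM apart within the table. Of 7574 regions linked to a gene by the same rule, TCIM had 16, the most of 4261 genes with any linked region. SMAD3, which encodes a transducer of TGF-β signals, had 13, EDN1, which encodes endothelin-1, and TNS3, which encodes a focal adhesion protein, had 12 each, and TUBD1 had 11. The median gene had 1 linked region, and 2599 genes had exactly 1. A wide space without other protein-coding starts also brings more regions to a gene under this rule, and how far that set the number was not tested. When genes of any type were allowed, 1 of the 16 regions, at +2.99 kb, stayed linked to TCIM.

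**Figure D1:**
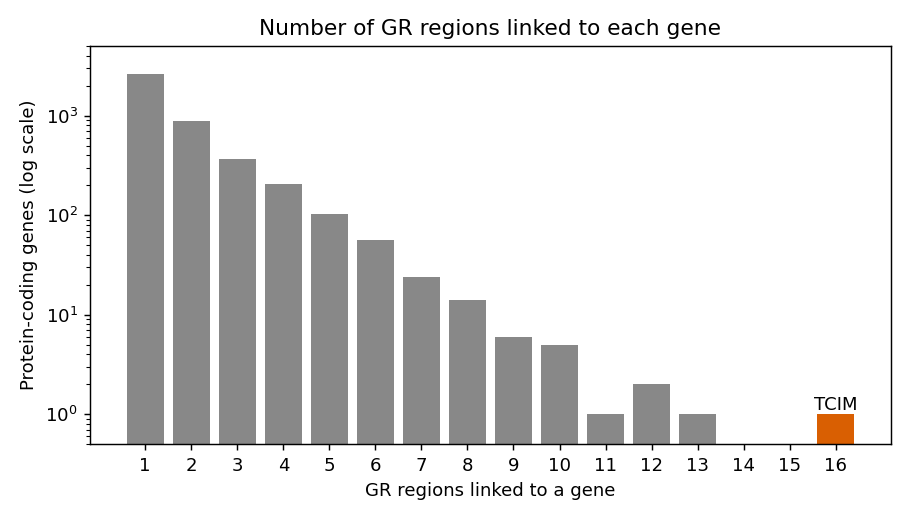
Number of protein-coding genes (vertical, log scale) by the number of GR regions linked to them (horizontal). TCIM stands at 16 regions, beyond SMAD3 at 13, and 2599 genes have 1 region.

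The authors' classes split the locus into 8 increasing, 6 unchanged and 2 decreasing regions, against 40.5%, 31.8% and 27.8% of all regions. The definition of these classes was not given in the sources used here. If it used the same GR signal, the class of a region and its Ad-GFP values are not independent. Regions of different classes were interleaved along the locus: increasing and unchanged regions alternated over the first 25 kb downstream, and both decreasing regions lay side by side in ENSG00000253381.

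**Figure D2:**
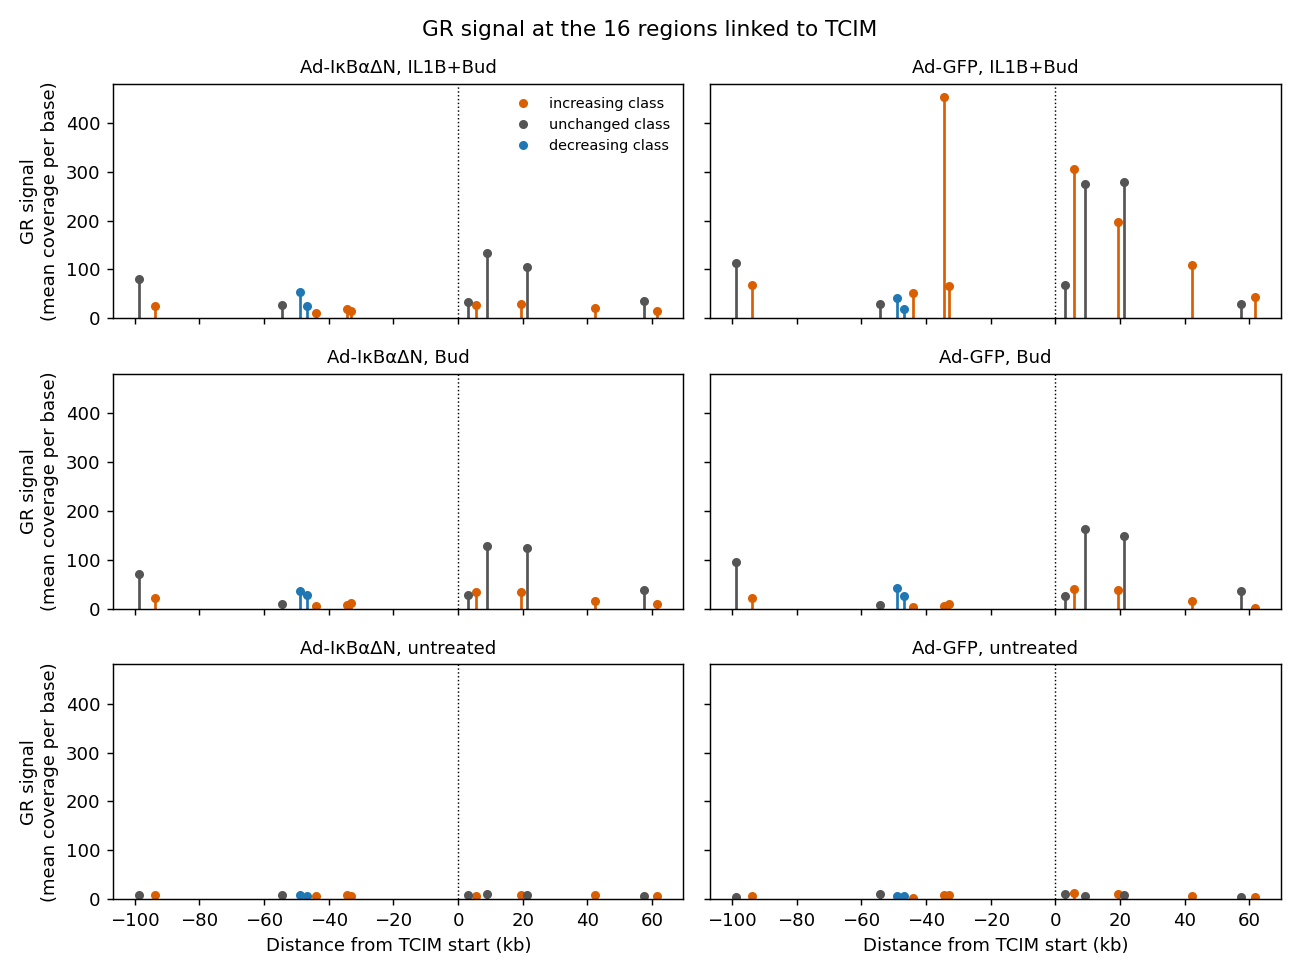
GR signal (mean coverage per base) at the 16 regions by distance from the TCIM start (kb), Ad-IκBαΔN on the left and Ad-GFP on the right, with IL1B+Bud, Bud and untreated cells from top to bottom and colours for the authors' classes. With IL1B+Bud the tallest region reached 133 in Ad-IκBαΔN cells, at +9.08 kb, and 452 in Ad-GFP cells, at -34.3 kb.

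A set of 3 unchanged regions carried 53.2% of the locus signal in Ad-IκBαΔN cells and 59.7% in Ad-GFP cells with budesonide alone. The +9.08 kb region, in the exon of ENSG00000254143 (40162360 to 40162759), had a signal in Ad-IκBαΔN cells of 133 with IL1B+Bud, 128 with Bud and 11.1 untreated, against 275, 163 and 7.39 in Ad-GFP cells. At +21.3 kb (40174597 to 40174996) the signal was 104 with IL1B+Bud, 125 with Bud and 8.34 untreated in Ad-IκBαΔN cells, against 279, 149 and 9.25 in Ad-GFP cells. The farthest upstream region, at -98.6 kb (40054652 to 40055051), had 81.5, 71.8 and 9.49 in Ad-IκBαΔN cells in the same order, against 114, 96.5 and 4.61 in Ad-GFP cells. All 3 were low in both untreated groups and high in all 4 treated groups. Budesonide alone gave 10.6-fold, 13.5-fold and 6.94-fold higher signal than no treatment in Ad-IκBαΔN cells at +9.08, +21.3 and -98.6 kb. In Ad-GFP cells the same differences were 19.5-fold, 14.6-fold and 17.4-fold. Part of the larger Ad-GFP fold at -98.6 kb lay in the untreated values, 9.49 in Ad-IκBαΔN and 4.61 in Ad-GFP cells. On adding IL1B to budesonide the log2 differences at these 3 regions lay between -0.26 and 0.18 in Ad-IκBαΔN cells and between 0.23 and 0.90 in Ad-GFP cells.

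A contrasting set had little GR signal with budesonide alone and a high one with IL1B+Bud in Ad-GFP cells. The -34.3 kb region, in an intron of LINC02866 (40118981 to 40119380), had 19.5 with IL1B+Bud, 8.35 with Bud and 8.15 untreated in Ad-IκBαΔN cells, against 452, 4.98 and 8.20 in Ad-GFP cells. One group, Ad-GFP with IL1B+Bud, stood far above the other 5, which lay between 4.98 and 19.5. Added IL1B gave 2.19-fold higher signal in Ad-IκBαΔN cells and 75.8-fold higher signal in Ad-GFP cells, where the difference ranked 8 of all 10740 regions and the level ranked 38. With the steps divided out the log2 difference was 0.58 in Ad-IκBαΔN cells, short of 2-fold, and 4.67 in Ad-GFP cells. The same pattern held at -33.0 kb, 1.31 kb further on in LINC02866 (40120293 to 40120692), with 14.5, 12.8 and 6.35 in Ad-IκBαΔN cells and 66.2, 9.14 and 9.31 in Ad-GFP cells for IL1B+Bud, Bud and untreated. At -44.0 kb (40109320 to 40109719) the values were 11.0, 5.08 and 5.80 in Ad-IκBαΔN cells and 52.4, 3.13 and 3.203 in Ad-GFP cells, and the farthest downstream region, at +61.6 kb (40214913 to 40215312), had 14.7, 9.33 and 7.38 in Ad-IκBαΔN cells and 43.1, 1.445 and 5.435 in Ad-GFP cells. Budesonide alone left these 4 regions near or below the untreated level in Ad-GFP cells, with log2 differences of -0.62, -0.02, -0.03 and -1.40 at -34.3, -33.0, -44.0 and +61.6 kb. Added IL1B then gave 6.62-fold, 12.9-fold and 18.0-fold higher signal in Ad-GFP cells at -33.0, -44.0 and +61.6 kb. The fold at +61.6 kb rested on the low budesonide value of 1.445, the lowest of any TCIM region in any group.

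The other 4 increasing regions had GR signal with budesonide alone and more with IL1B+Bud in Ad-GFP cells. The +5.68 kb region (40158962 to 40159361) had 26.4 with IL1B+Bud, 35.3 with Bud and 6.17 untreated in Ad-IκBαΔN cells, against 306, 41.2 and 12.2 in Ad-GFP cells. At +19.5 kb (40172800 to 40173199) the values in that order were 29.8, 34.6 and 9.49 in Ad-IκBαΔN cells and 198, 37.9 and 10.0 in Ad-GFP cells. Both viruses gave close values with budesonide alone, and Ad-GFP with IL1B+Bud stood apart from all other groups. Added IL1B gave 7.27-fold and 5.11-fold higher signal at +5.68 and +19.5 kb in Ad-GFP cells, while in Ad-IκBαΔN cells the log2 differences were -0.40 and -0.21. The +42.4 kb region (40195709 to 40196108) had 21.9, 16.6 and 9.00 in Ad-IκBαΔN cells and 109, 16.3 and 6.84 in Ad-GFP cells. The -93.7 kb region (40059549 to 40059948), 4.90 kb from the budesonide-bound region at -98.6 kb, had 24.9, 23.1 and 8.11 in Ad-IκBαΔN cells and 68.4, 22.9 and 7.37 in Ad-GFP cells. These last 2 were 1.31-fold and 1.08-fold higher with added IL1B in Ad-IκBαΔN cells, and 6.36-fold and 2.91-fold higher in Ad-GFP cells.

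The other 5 regions were of the unchanged or decreasing class and of moderate signal. At +2.99 kb (40156274 to 40156673), the region nearest to the gene, the values for IL1B+Bud, Bud and untreated were 32.7, 27.7 and 8.97 in Ad-IκBαΔN cells and 67.5, 26.4 and 10.3 in Ad-GFP cells. Although the authors class it as unchanged, its added-IL1B difference in Ad-GFP cells was 2.50-fold as deposited, a log2 difference of 1.32 that turned to -0.22 with the steps divided out. The unchanged region at -54.3 kb (40098944 to 40099343) had little signal with budesonide alone, with 26.6, 10.0 and 8.11 in Ad-IκBαΔN cells and 29.7, 7.63 and 10.8 in Ad-GFP cells. Added IL1B gave 2.51-fold higher signal there in Ad-IκBαΔN cells and 3.56-fold higher signal in Ad-GFP cells, but both fell short of 2-fold with the steps divided out, at log2 differences of 0.77 and 0.34. At the decreasing region at -48.9 kb (40104407 to 40104806) the values were 54.8, 36.3 and 9.16 in Ad-IκBαΔN cells and 40.8, 41.9 and 6.53 in Ad-GFP cells. Its neighbour at -46.8 kb (40106496 to 40106895) had 26.25, 27.5 and 7.39 in Ad-IκBαΔN cells and 19.7, 25.7 and 5.90 in Ad-GFP cells. The unchanged region at +57.4 kb (40210657 to 40211056) had 35.4, 38.5 and 7.24 in Ad-IκBαΔN cells and 29.8, 36.6 and 4.98 in Ad-GFP cells. At -48.9, -46.8 and +57.4 kb the Ad-GFP log2 difference on added IL1B was -0.04, -0.36 and -0.29, and Ad-GFP with IL1B+Bud was not the highest group.

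**Figure D3:**
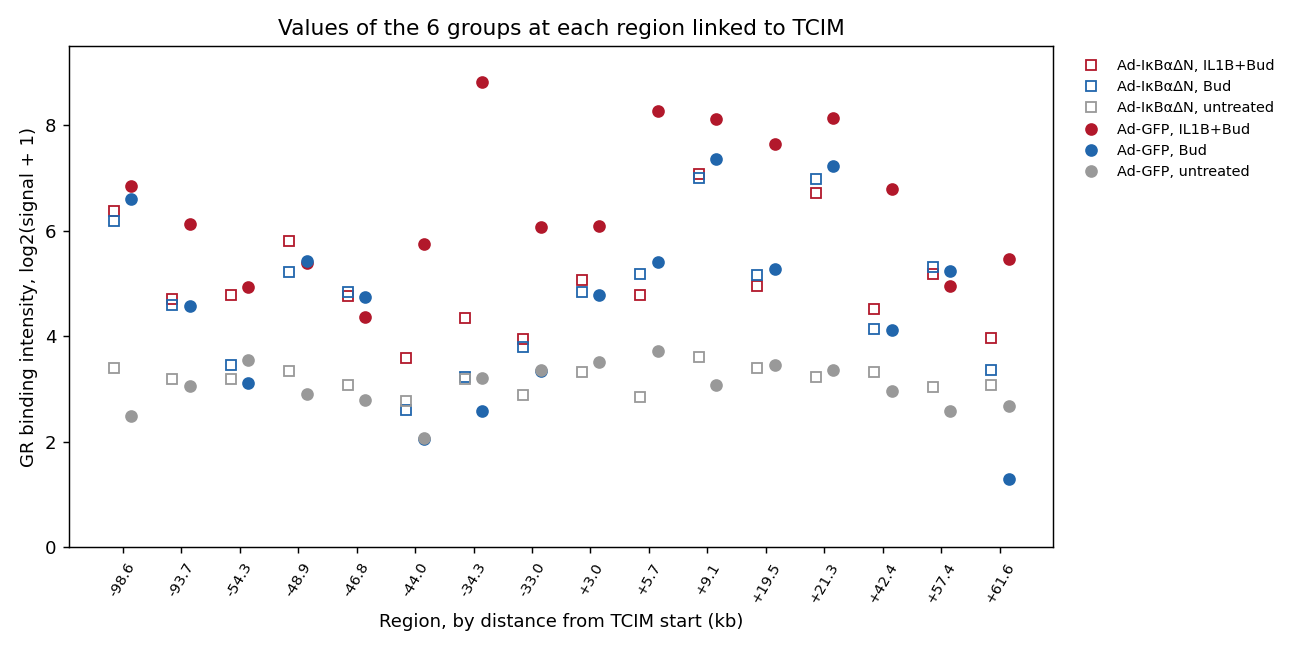
The authors' log2(signal + 1) at each of the 16 regions, ordered by distance from the TCIM start (kb), with open squares for Ad-IκBαΔN, filled circles for Ad-GFP, and red, blue and grey for IL1B+Bud, Bud and untreated cells. The filled red point is the highest of the 6 at 13 regions, while the open red point lies near the open blue one at most.

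Budesonide alone against no treatment was the first comparison. In Ad-IκBαΔN cells 10 of 16 regions were higher and none of the 16 lower, against 59.3% and 1.06% of all regions. In Ad-GFP cells 11 were higher and 1 lower, at +61.6 kb, against 57.9% and 8.14% of all regions. The members' median log2 difference was 1.64 in Ad-IκBαΔN and 1.60 in Ad-GFP cells, beside 1.37 over all regions in each virus. These shares lie near the background. Summed over the 16 regions, signal with Bud was 609 against 130 untreated in Ad-IκBαΔN cells and 683 against 122 untreated in Ad-GFP cells. The +9.08 kb region alone held 20.9% of the sum in Ad-IκBαΔN and 23.8% in Ad-GFP cells with Bud. Centring every group on the unchanged class turned the members' median to -0.20 in Ad-IκBαΔN and -0.33 in Ad-GFP cells. That class itself rose on budesonide, by a median of 1.84 in Ad-IκBαΔN and 1.99 in Ad-GFP cells, and centring takes this rise out. Such centring therefore cannot decide the direction, which is given as deposited and could not be checked, since the scale between groups was not stated.

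Adding IL1B to budesonide gave GR signal that was higher at 2 of 16 regions in Ad-IκBαΔN cells and at 10 in Ad-GFP cells. Among all regions 9.65% were higher in Ad-IκBαΔN cells and 48.9% in Ad-GFP cells. Both Ad-IκBαΔN regions, at -54.3 and -34.3 kb, were also among the 10 in Ad-GFP cells. None of the 16 was lower in either virus, against 0.94% of all regions in Ad-IκBαΔN and 6.07% in Ad-GFP cells. The members' median log2 difference was 0.17 in Ad-IκBαΔN cells, beside 0.26 over all regions, and 1.69 in Ad-GFP cells, beside 0.92. In Ad-GFP cells all 8 increasing regions were higher, beside 93.3% of the increasing class, with a median of 2.79 beside 2.95 for that class. Of the 6 unchanged ones 2 were higher, at -54.3 and +2.99 kb, beside 28.8% of the unchanged class, and neither decreasing one was, beside 7.27% of its class. The locus's regions thus lay near the background of their classes. Summed signal at the locus was 657 with IL1B+Bud against 609 with Bud in Ad-IκBαΔN cells, a ratio of 1.08 beside 1.09 over all regions. In Ad-GFP cells it was 2150 against 683, a ratio of 3.15 beside 1.88 over all regions.

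The split between higher and lower regions in Ad-GFP cells depended on scale. It was 10 higher and 0 lower as deposited. With every group centred on the unchanged class it was 9 and 0, against 43.1% and 16.3% of all regions. Re-centring every group to a common median gave 7 and 3, against 37.0% and 32.1%, and quantile normalization gave 7 and 2, against 25.6% and 26.9%. Once the steps were divided out it was 6 and 4, against 30.3% and 43.7% of all regions. The median over all regions, 0.92 as deposited, was 0.42 with centring on the unchanged class, -0.12 with re-centring, -0.13 with quantile normalization and -0.61 with the steps divided out. Relative to all regions the members' median stayed above by 0.50 to 0.78 over these settings and as deposited. All 8 increasing regions stayed above 0 under each of these scalings except with the steps divided out, where -93.7 kb was at -0.01. The smallest Ad-GFP difference at -34.3 kb under any scaling was 3.84. In Ad-IκBαΔN cells 11 regions were above 0 and 5 below as deposited, and 5 above and 11 below once the steps were divided out, so no direction can be given there.

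**Figure D4:**
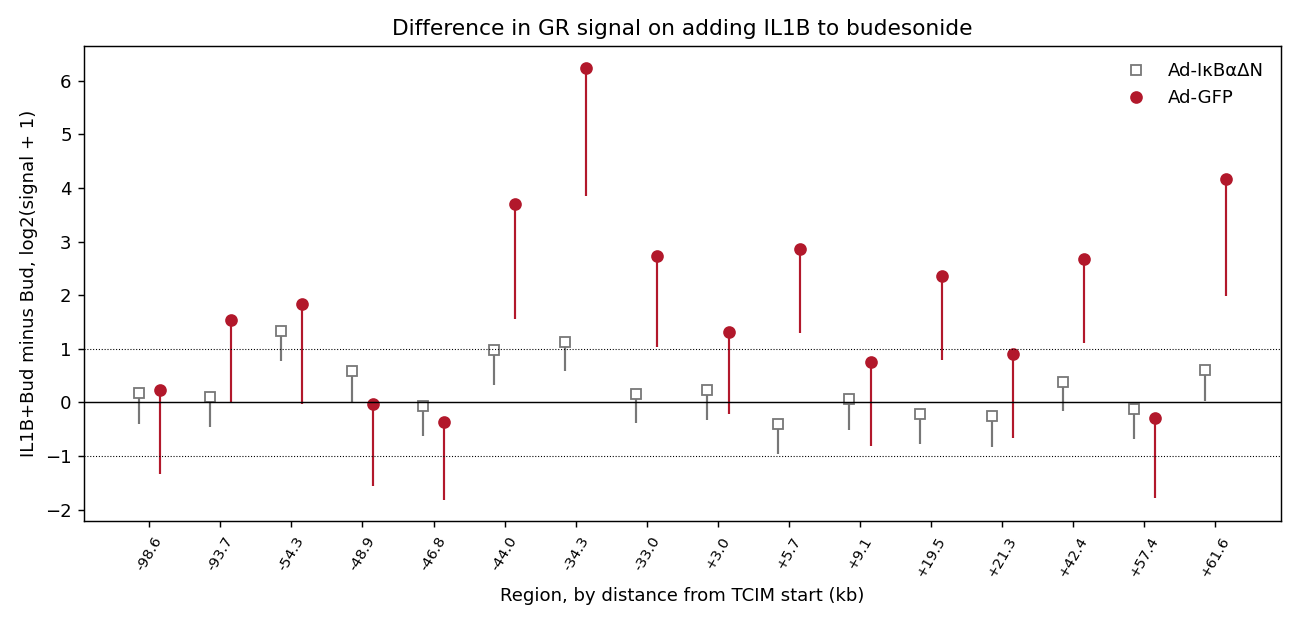
Log2 difference in GR signal, IL1B+Bud minus Bud, at each region by distance from the TCIM start (kb), open squares for Ad-IκBαΔN and filled circles for Ad-GFP; vertical lines span the values under the other scalings and are not errors, and dotted lines mark 2-fold. As deposited, 2 Ad-IκBαΔN points and 10 Ad-GFP points lie above the upper dotted line.

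Set directly against each other, the viruses differed at the locus mainly where IL1B was present. With IL1B+Bud, 11 of 16 regions were lower in Ad-IκBαΔN than in Ad-GFP cells and 0 were higher, against 46.5% and 5.97% of all regions, and the median log2 difference was -1.41 beside -0.85 over all regions. The 11 were all 8 increasing regions, beside 88.1% of the increasing class, and 3 of the 6 unchanged regions, at +2.99, +9.08 and +21.3 kb, beside 28.4% of the unchanged class. These 3 unchanged regions fell short of 2-fold with the steps divided out, at log2 differences of -0.05, -0.05 and -0.41. So did the increasing regions at -93.7 and +61.6 kb, at -0.43 and -0.51. At -34.3 kb the Ad-IκBαΔN value was 0.0452 of the Ad-GFP value, at +5.68 kb 0.0895 and at +19.5 kb 0.155. The 3 regions at -48.9, -46.8 and +57.4 kb went the other way, with Ad-IκBαΔN above Ad-GFP by 0.42, 0.39 and 0.24 log2. All 8 increasing regions stayed lower in Ad-IκBαΔN under every scaling, but with the steps divided out 3 of the 16 were higher and 6 lower, against 25.7% and 22.4% of all regions. Summed signal in Ad-IκBαΔN cells was 0.306 of that in Ad-GFP cells, beside 0.538 over all regions.

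With budesonide alone the viruses gave values within 2-fold of each other at all but 1 region. One of 16 was higher in Ad-IκBαΔN and none of the 16 lower, against 4.02% and 0.0186% of all regions, and the median log2 difference was 0.04 beside 0.02. The exception was +61.6 kb, at 9.33 in Ad-IκBαΔN against 1.445 in Ad-GFP cells, a difference of 2.08 that ranked 2 of all 10740 regions. Without treatment none of the 16 passed 2-fold in either direction, against 7.21% higher and 2.77% lower in Ad-IκBαΔN among all regions, and the member values lay between 5.80 and 11.1 in Ad-IκBαΔN and between 3.203 and 12.2 in Ad-GFP cells.

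Across the 16 regions the log2 values with Bud in Ad-IκBαΔN and in Ad-GFP cells correlated at a Pearson r of 0.97 (Spearman rho 0.97), beside an r of 0.98 over all regions. With IL1B+Bud the r between the viruses was 0.34 (rho 0.18), beside 0.17 over all regions. Without treatment it was lower still at the locus, at 0.16 (rho 0.08), beside 0.29 over all regions. In Ad-IκBαΔN cells IL1B+Bud and Bud correlated at 0.93 (rho 0.92), beside 0.90 over all regions, and in Ad-GFP cells at 0.35 (rho 0.36), beside 0.07. These values describe 16 neighbouring regions of 1 chromosome, drawn from the same libraries, and are not a test. As in the whole table, the order of regions with IL1B+Bud was close to that with budesonide alone in Ad-IκBαΔN cells and less so in Ad-GFP cells.

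**Figure D5:**
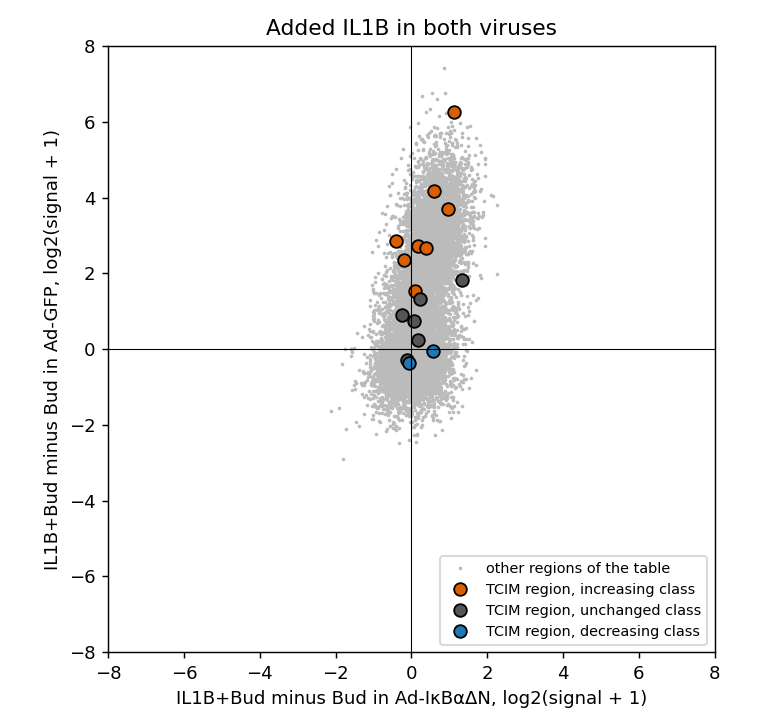
Log2 difference, IL1B+Bud minus Bud, in Ad-IκBαΔN (horizontal) and Ad-GFP cells (vertical), with grey points for the other regions and coloured points for the 16 TCIM regions by the authors' class. The increasing regions run up to 6.24 on the vertical axis and no further than 1.13 on the horizontal axis.

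Against no treatment, IL1B+Bud gave higher signal at 14 of 16 regions in Ad-IκBαΔN cells and at all 16 in Ad-GFP cells, against 69.1% and 93.7% of all regions. None of the 16 was lower, against 0.0466% of all regions in Ad-IκBαΔN cells and 0% in Ad-GFP cells. The 2 that did not reach 2-fold in Ad-IκBαΔN cells were -44.0 and +61.6 kb, at 1.76-fold and 1.88-fold. The members' median was 1.65 in Ad-IκBαΔN cells beside 1.48 over all regions, and 3.36 in Ad-GFP cells beside 2.49, but in Ad-IκBαΔN it turned to -0.29 with centring on the unchanged class. With that centring 3 regions were higher and 2 lower in Ad-IκBαΔN cells, against 9.34% and 28.3% of all regions. In Ad-GFP cells 8 were higher and 1 lower, against 19.7% and 14.0%. The centring takes out the unchanged class's own rise, a median of 1.94 in Ad-IκBαΔN and 2.46 in Ad-GFP cells, so it cannot decide the direction. Ad-GFP with IL1B+Bud was the highest of the 6 groups at 13 of the 16 regions, beside 63.9% of all regions. Both untreated groups lay below all 4 treated ones at 11 of 16, beside 67.8% of all regions.

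The downstream side held more of the locus signal in every group. Its share with IL1B+Bud, Bud and no treatment was 60.6%, 68.0% and 52.0% in Ad-IκBαΔN cells and 60.8%, 69.0% and 54.3% in Ad-GFP cells. In Ad-GFP cells with IL1B+Bud the -34.3 kb region, on the upstream side, alone held 21.0% of the locus signal.

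The rule's 100 kb limit left -98.6 kb just inside. Just outside on that side was a region in IDO2, which encodes an indoleamine 2,3-dioxygenase, at -146 kb from the TCIM start (40007465 to 40007864), with 12.6, 8.06 and 6.85 in Ad-IκBαΔN cells and 33.4, 5.13 and 13.8 in Ad-GFP cells for IL1B+Bud, Bud and untreated. Downstream, +61.6 kb was the last inside and the next region, in the long non-coding RNA SIRLNT at +197 kb (40350311 to 40350710), lay 135 kb beyond it, with 17.8, 11.4 and 9.24 in Ad-IκBαΔN cells and 106, 12.5 and 5.21 in Ad-GFP cells. Counting that one, 7 regions lay downstream between the limit and 500 kb, and none of the 7 had a protein-coding start within 100 kb. Among protein-coding neighbours within 1.5 Mb, TACC1 and TM2D2 had 3 linked regions each, IDO2 had 2, and PLEKHA2, GOLGA7 and GPAT4 had 1 each.

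Sequence motifs were searched in the 400 bp of each region on both strands. For the glucocorticoid response element, AGAACA, then 3 bases of any kind, then TGTTCT, at most 2 mismatches in the 12 fixed bases were allowed. It was found in 1 of 16 regions, the decreasing one at -46.8 kb, beside 14.7% of all regions. The κB motif of NF-κB was found in 1 region, +21.3 kb, beside 21.3% of all regions. TGACTCA or its reverse complement TGAGTCA, one form of the AP-1 motif family, was found in 5 regions, at -93.7, -34.3, +21.3, +42.4 and +57.4 kb, beside 22.8% of all regions. Of the 8 increasing regions, 0 held a κB match, beside 40.3% of the increasing class, and 3 held the AP-1 match, beside 25.0%. No motif overlapped another, and 10 of the 16 held none of the 3 motifs, beside 49.2% of all regions. A match is a description of letters in a window, and its absence says nothing of a factor's binding.

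The genes whose regions had the most similar pattern over the 6 groups were found by the distance between centred mean log2 values, among 212 other genes with at least 5 linked regions. The TCIM means were 5.04, 4.74 and 3.18 in Ad-IκBαΔN cells with IL1B+Bud, Bud and no treatment, and 6.48, 4.57 and 3.05 in Ad-GFP cells. The nearest were SLC9A8, a sodium-hydrogen exchanger, at a distance of 0.21, NEDD4, a ubiquitin ligase, at 0.23, RASA2, a Ras GTPase-activating protein, at 0.25, PLA2G4A, a cytosolic phospholipase A2, at 0.30 and FA2H, a fatty acid hydroxylase, at 0.31. Over all 212 genes the median distance was 1.101 and the largest 2.49.

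For the Wnt/β-catenin pathway, a list of 60 genes had 57 linked GR regions at 26 genes. On adding IL1B to budesonide 7 of the 57 were higher and 1 lower in Ad-IκBαΔN cells, and 27 higher and 5 lower in Ad-GFP cells. That compares with 9.65% and 0.94% of all regions in Ad-IκBαΔN cells and 48.9% and 6.07% in Ad-GFP cells. The list had medians of 0.25 and 0.91 beside 0.26 and 0.92 over all regions. The list as a whole thus lay at the background, and nothing particular to it is claimed. The region of the list with the largest difference in Ad-GFP cells belonged to TLE3, a co-repressor of the pathway (chromosome 15, 70140527 to 70140926), with signal of 16.7 with IL1B+Bud against 9.62 with Bud in Ad-IκBαΔN cells, and 306 against 3.33 in Ad-GFP cells. AXIN2, a feedback inhibitor, had 16.9 against 7.91 in Ad-IκBαΔN cells and 197 against 3.09 in Ad-GFP cells at chromosome 17, 65551905 to 65552304. WNT4, a secreted ligand, had 13.9 against 4.30 in Ad-IκBαΔN cells and 79.1 against 1.41 in Ad-GFP cells at chromosome 1, 22229395 to 22229794. Like -34.3 kb at TCIM, these 3 had low signal with budesonide alone and a high value in Ad-GFP cells with IL1B+Bud. At the other end, a region of LRP6, a Wnt co-receptor (chromosome 12, 12221498 to 12221897), had 115 against 76.1 in Ad-IκBαΔN cells and 36.5 against 99.97 in Ad-GFP cells, a log2 difference of 0.59 in Ad-IκBαΔN and -1.43 in Ad-GFP cells. In Ad-GFP cells 1 of the 4 regions of WNT7B, a secreted ligand, and 1 of the 4 of TLE1, a co-repressor, named as the lowest of the list, had 0.354 and 0.412 of their budesonide value with IL1B+Bud.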

How the data were processed

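The deposited table gives a log2 GR binding intensity, 1 value per region and group, and writes Ad-IκBα for the virus the labels name Ad-IκBαΔN. Named in the submitters' processing notes, with build hg38, are DiffBind 3.2, MACS2 2.2.7.1, SAMtools, Bowtie2 2.4.4, FastQC 0.10.1 and bcl2fastq. The tool behind the values, how a group's 2 libraries became 1 value and the scale between groups were not given in the sources used here. Library depth is therefore unknown. Signal was recovered as 2 to the power of the value, minus 1. Of the 26 libraries, the 12 for RELA and the 2 inputs were not analysed here.

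Regions were linked to genes with GENCODE 44, and all 10740 lay inside hg38 chromosome lengths. Coordinates count from 1. The planned tests needed values per library, so counts of 2-fold differences over 9 comparisons, beside the share of all regions, stand in their place. Every TCIM region was described. Pattern likeness named the 5 nearest genes with at least 5 regions, every gene with as many regions as TCIM was to be named (the next 4 by number, SMAD3, EDN1, TNS3 and TUBD1, were added after their values were seen), and the 3 highest and 3 lowest Wnt-list regions could be named. The members, lists and rules were chosen with earlier results of these data known. Alternatives were 5 scalings or pseudocounts, a filter on low values, 3 other linking rules and the averaging of regions within 1 kb. The counting was tested on simulated data. Python 3.11.15, numpy 2.4.6, pandas 2.3.3, pysam 0.24.0 and matplotlib 3.10.9 were used.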

Additional observations from a re-analysis of the deposited data

Results flagged for a closer look

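At 4 regions near TCIM the difference on adding IL1B to budesonide had opposite signs in the 2 viruses. The log2 difference in Ad-IκBαΔN and in Ad-GFP cells was 0.58 and -0.04 at -48.9 kb, -0.40 and 2.86 at +5.68 kb, -0.21 and 2.35 at +19.5 kb, and -0.26 and 0.90 at +21.3 kb. The Ad-IκBαΔN values were all within 2-fold. The opposite signs at +21.3 kb rest on the deposited scale: with the steps divided out both were below 0, at -0.83 and -0.67.

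At 4 regions the difference on budesonide alone against no treatment had opposite signs. The log2 difference in Ad-IκBαΔN and in Ad-GFP cells was 0.28 and -0.45 at -54.3 kb, 0.031 and -0.62 at -34.3 kb, 0.91 and -0.02 at -33.0 kb, and 0.30 and -1.40 at +61.6 kb. Dividing out the steps left these values as they were, so the opposite signs stayed at all 4. They did not stay with centring on the unchanged class. Centred on the unchanged class, the Ad-IκBαΔN value fell to -1.57, -1.81, -0.93 and -1.54 at -54.3, -34.3, -33.0 and +61.6 kb. The Ad-GFP value stayed below 0 under each scaling. That class itself rose on budesonide by a median of 1.84 in Ad-IκBαΔN cells, so centring on it cannot decide the sign. In each of the 8 cases the difference between the viruses was not tested, since each group had 1 value per region.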

How the results depend on the processing

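Counts of 2-fold regions at TCIM moved with the scale set between groups and with the rule that links regions to genes; the cause of the shifts with scale was not tested. Under 10 alternatives 126 recomputed counts stayed within 1.5 times and 54 moved. Among the medians, 67 kept their sign and their side of 2-fold, 15 fell short of 2-fold and 8 changed sign. The stable numbers include results that could not move. Averaging regions within 1 kb merged none, since the smallest gap was 1.31 kb, and dividing out steps left comparisons without IL1B as they were. Re-centring, quantile normalization and centring on the unchanged class take out a shift shared by most regions, so they cannot decide direction against untreated.

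Re-centred to a common median, Bud against untreated gave 3 higher and 4 lower in Ad-IκBαΔN, against 18.9% and 27.2% of all regions. In Ad-GFP it gave 5 higher and 5 lower, against 24.3% and 32.6%. IL1B+Bud against Bud gave 3 lower in Ad-GFP, against 32.1%. IL1B+Bud against untreated gave 3 higher in Ad-IκBαΔN, against 16.7%, and 8 higher and 1 lower in Ad-GFP, against 19.3% and 14.5%. The viruses with IL1B+Bud, Ad-IκBαΔN over Ad-GFP, gave 3 higher and 6 lower, against 25.4% and 24.4%. After quantile normalization Bud against untreated gave 3 and 1 (median -0.10) in Ad-IκBαΔN, against 21.5% and 21.8% of all regions. In Ad-GFP it gave 4 and 3, against 22.0% and 22.5%. IL1B+Bud against Bud gave 0 higher in Ad-IκBαΔN, against 0.885%, and 2 lower in Ad-GFP, against 26.9%. IL1B+Bud against untreated gave 2 higher in Ad-IκBαΔN, against 20.7%, and 8 and 1 in Ad-GFP, against 19.9% and 19.9%. Between viruses with IL1B+Bud the counts were 3 and 6, against 24.5% and 24.3%. Untreated viruses differed at 2 higher and 2 lower, against 19.3% and 19.7%, and the median between viruses with Bud was -0.0032. Centred on the unchanged class, Bud against untreated gave 2 and 5 (median -0.20) in Ad-IκBαΔN, against 10.2% and 37.1% of all regions. In Ad-GFP it gave 3 and 5 (median -0.33), against 14.4% and 40.7%. IL1B+Bud against untreated gave 3 and 2 (median -0.29) in Ad-IκBαΔN, against 9.34% and 28.3%. In Ad-GFP that was 8 and 1, against 19.7% and 14.0%. With IL1B+Bud, Ad-IκBαΔN was lower than Ad-GFP at 7, against 35.9%. With steps divided out, IL1B+Bud against Bud gave 0 higher (median -0.39) in Ad-IκBαΔN, against 0.875% of all regions. In Ad-GFP it gave 6 and 4, against 30.3% and 43.7%. IL1B+Bud against untreated gave 9 higher in Ad-IκBαΔN, against 46.9%, where the untreated group had no step of its own. The viruses with IL1B+Bud gave 3 and 6, against 25.7% and 22.4%.

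With a pseudocount of 5, IL1B+Bud against Bud in Ad-IκBαΔN had 1 higher, against 2.57% of all regions. Bud against untreated in Ad-GFP had 0 lower, against 2.06%. Without the lowest 25% of regions (14 left) and within 50 kb (11 left), that lower count and the higher count between viruses with Bud were 0, since +61.6 kb dropped out; within 50 kb IL1B+Bud against Bud in Ad-IκBαΔN had 1 higher and the median between untreated viruses was -0.0081. Linking to the nearest gene of any type left 1 region, +2.99 kb, with counts of 1 or 0 in each comparison and a median of -0.19 between untreated viruses. Linking by transcript start left 14, without -98.6 and -93.7 kb, and no count moved by over 1.5 times. Averaging regions within 1 kb left all 16 as they were, since none lay so close. No paired analysis was possible because the table holds 1 value per region and group, and no library could be left out for the same reason.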
